A study of Apis mellifera with 18 samples.

Results

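The genes described here are CYP6AS11 (LOC724946), CYP6AS13 (LOC551028) and Cyp6as5, 3 cytochrome P450 genes of the honey bee, taken by name together with every transcript the deposited count tables list for them. This gives 4 transcripts of 3 genes among 28396 features of 12394 genes. CYP6AS11 and CYP6AS13 each have 1 transcript, NM_001365139.1 and NM_001365199.1, and Cyp6as5 has 2, NM_001040234.1 and XM_026444558.1. Of the 4, the 3 other than NM_001040234.1 had counts in at least 1 library and passed the filter on low counts. XM_026444558.1 passed it only through its tubule pools, with 210 to 301 counts each. It had at most 29 counts in a ventriculus pool and 64 in a brain pool. Its tests of the tubules are therefore not independent of that filter.

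Cytochrome P450 monooxygenases are heme enzymes that insert an oxygen atom into small molecules, among them plant compounds and pesticides. The CYP6AS subfamily belongs to the insect CYP3 clan and is enlarged in the honey bee. Several of its enzymes oxidise quercetin, a flavonol of pollen and honey, and p-coumaric acid from pollen raises transcripts of several of its genes in bees that feed on it. The ventriculus, the midgut in which food is digested, and the Malpighian tubules, the excretory tubes that open into the gut behind it, are both tissues in which food compounds are handled.

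The libraries came from workers of 6 patrilines, or paternal families, of a single colony, Colony 36: P1, P7, P8, P11, P21 and P24. All workers were taken from the colony at 7 days of age and kept overnight with 50% sucrose in an incubator at 33 °C. On the following day they were starved for 2 h and then fed for 4 h on 50% sucrose with clothianidin, a neonicotinoid insecticide, at 4.27 ppb. They went back to the incubator and were frozen 24 h after that feeding. For each patriline the brain, the ventriculus and the Malpighian tubules of the same 5 workers were pooled by tissue, giving 18 libraries and n = 6 pools per tissue. The exposure and the diet were common to all 18 libraries, so the comparisons below are between tissues of exposed bees, and a response to diet or to clothianidin cannot be read from them. Workers of 1 colony are related, and the p-values describe the spread between these 6 pools.

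Total counts on transcripts lay between 39722329 and 87946924 per library. The brain libraries of P11 and P21 stood apart in royal jelly protein transcripts, which mark the hypopharyngeal gland of the head: the 9 Mrjp genes held 28.1% and 19.2% of their counts, against 0.856% to 3.97% in the other 4 brain pools. In the P21 patriline, brain and tubule transcripts also appeared in each other's library. In its brain pool, 92 tubule transcripts that are scarce in brain stood at a median of 15.2% of their tubule level above the other brain pools, and in its tubule pool 96 brain transcripts stood at a median of 13.5% of their brain level above the other tubule pools. In the P8 tubule pool, 52 ventriculus transcripts stood at a median of 6.57% of their ventriculus level above the other tubule pools, and the P7 ventriculus pool held 15250 CPM (counts per 1e6 counted reads, with library sizes scaled by TMM factors) of venom gland transcripts, against a median of 2.91 CPM. The levels and tests of the CYP6AS genes are given with and without the brain pools of P11 and P21. The digestive peptidases used as ventriculus markers summed to 48802 to 75272 CPM in the ventriculus, to at most 10643 CPM in the tubules and to at most 69.8 CPM in the brain.

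CYP6AS11 had its highest level in the Malpighian tubules. Its level there was lowest at 2593 CPM, with a median of 3524 and a highest value of 4875 CPM (mean 3680 ± 815, SD, n = 6). In the ventriculus the lowest, median and highest values were 96.7, 229 and 444 CPM (243 ± 123, n = 6). All 6 tubule pools lay above all 6 ventriculus pools, a separation found in 37.1% of all transcripts tested, and within a patriline the tubules held 8.05 to 35.9 times the ventriculus level.

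In the brain CYP6AS11 was almost uncounted in 4 of the 6 pools. These were P1, P7, P8 and P24, with 19, 5, 26 and 17 counts and between 0.0675 and 0.364 CPM. The brain pool of P11 held 442 counts (8.11 CPM) and that of P21 30975 counts (511 CPM), a value above every ventriculus pool. The median of the 6 was 0.288 CPM, while the mean was 86.6 ± 208 CPM (SD, n = 6), a mean set by 1 pool. Without P21 the mean was 1.79 ± 3.53 CPM (n = 5), and without P11 and P21 it was 0.213 ± 0.121 CPM (n = 4).

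CYP6AS13 had another pattern, high in the brain as well as in the tubules. Its tubule level ran from 1054 over a median of 1497 to 1731 CPM (1452 ± 269, n = 6), and its brain level from 666 over 796 to 1044 CPM (832 ± 168, n = 6). In the ventriculus the values were 70.2, 101 and 159 CPM (106 ± 29.6, n = 6). At these TMM-scaled levels the 3 tissues did not overlap. The highest ventriculus pool was below the lowest brain pool. The highest brain pool, 1044 CPM in P21, was just below the lowest tubule pool, 1054 CPM in P8. Over all transcripts tested, pools did not overlap in 37.1% for tubules and ventriculus, 55.9% for tubules and brain and 61% for ventriculus and brain. The brain held 4.19 to 14.5 times the ventriculus level of the same patriline, and the tubules 1.23 to 2.56 times the brain level, higher in 6 of 6 patrilines. The order of brain and tubules depended on the TMM factors. In P8 the brain held 61441 counts of a total of 40403232, and the tubules 48855 of 41264780. By library size alone the brain was thus the higher in P8. Without the P8 tubule pool, in which ventriculus transcripts were raised, the logFC of tubules minus brain (log2 difference, edgeR's quasi-likelihood test) was 0.94 ± 0.186, and without the P7 ventriculus pool, the lowest of its tissue at 70.2 CPM, that of ventriculus minus brain was −2.85 ± 0.196.

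The brain pools of P11 and P21 did not stand apart in CYP6AS13, with 666 and 1044 CPM at the 2 ends of a range that P24 (677 CPM) and P7 (1015 CPM) nearly filled. Without them the brain mean was 821 ± 151 CPM (n = 4). The transcript was present at 677 to 1015 CPM in the 4 brain pools in which CYP6AS11 had at most 26 counts. In these pools the Mrjp genes still held 0.856% to 3.97% of the counts. Whether the CYP6AS13 counts arose in brain cells was not tested.

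Cyp6as5 was hardly counted in any library. NM_001040234.1 had 0 counts in all 18 libraries; with a floor of 3 counts per library, this allows up to 0.0326 to 0.09 CPM, depending on the library. XM_026444558.1 had 1655 counts in all, of which 1486 were in the tubules (3.30, 4.91 and 6.11 CPM for the lowest, median and highest pool, mean 4.76 ± 0.981, n = 6). The ventriculus held 96 counts (0.0577, 0.440 and 0.869 CPM) and the brain 73 (0, 0.0176 and 1.06 CPM), 64 of them in the pool of P21. All tubule pools lay above all pools of the other tissues, while brain and ventriculus overlapped through the P21 brain pool. Over all transcripts tested, 37.1% had tubule and ventriculus pools that did not overlap, and 55.9% had tubule and brain pools that did not.

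These low counts cannot be taken as the level of the gene. The authors counted reads per transcript, and a read that fits more than 1 transcript falls into HTSeq's ambiguous class, which held 30.9% to 50.3% of the fragments of a library. Among protein-coding features, 62.0% of those from genes with several transcripts had 0 counts in all libraries (11994 of 19345), against 0.257% of those from genes with a single transcript (13 of 5050). Cyp6as5 is of the first kind. CYP6AS11 and CYP6AS13 are of the second kind and share no stretch with another gene in the reference table. Reads that fit closely related CYP6AS copies could be lost or shared in all 3 genes, and transcript lengths were not used here, so levels are not compared between genes.

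**Figure D1:**
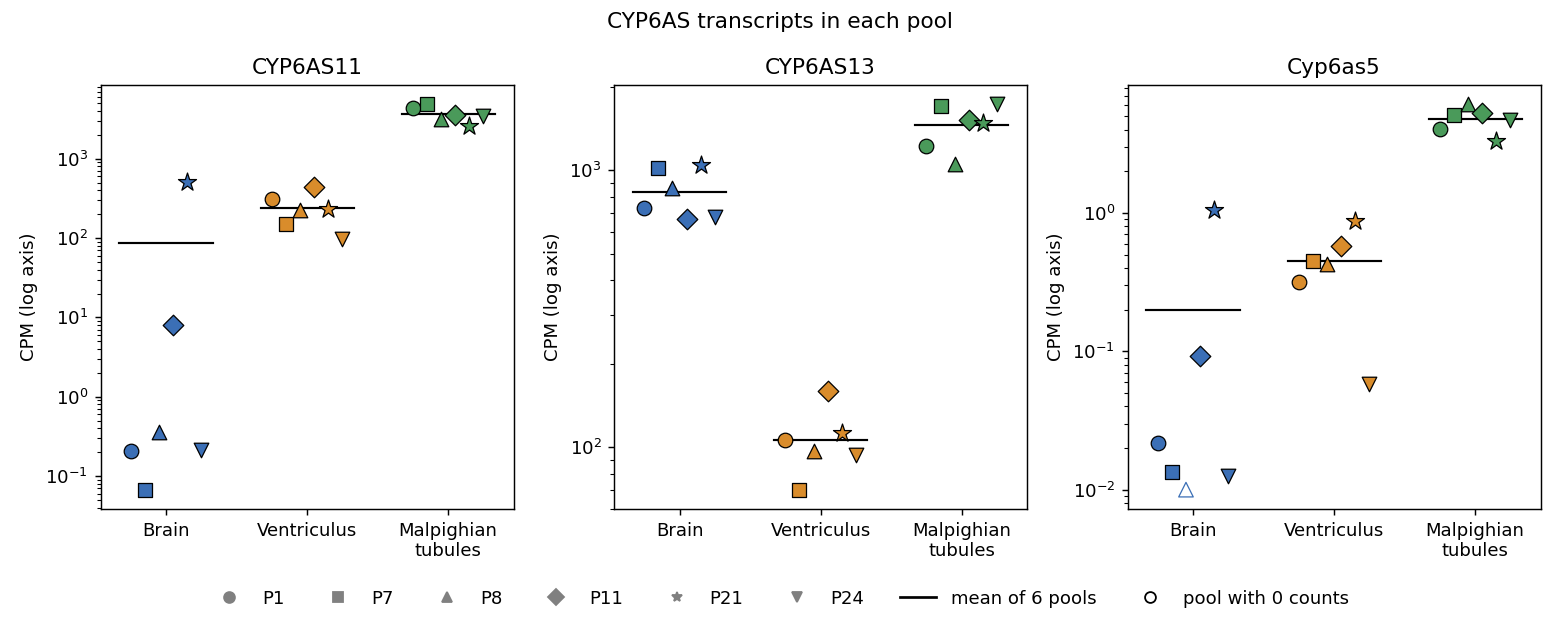
CPM on a log axis of CYP6AS11, CYP6AS13 and Cyp6as5 (XM_026444558.1) in each of 6 patriline pools per tissue, with a marker shape for each patriline, a line at the mean of 6 pools and an open marker, at the lower edge, for the pool with 0 counts. CYP6AS11 spanned 0.0675 to 511 CPM in the brain, where the stars of P21 lay far above the rest for CYP6AS11 and Cyp6as5. At these TMM-scaled levels the 3 tissues were separate for CYP6AS13.

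The first comparison asked whether the tubules differ from the ventriculus. All 3 CYP6AS transcripts were higher in the tubules by 10.6 to 15.2 times, where over all 10209 transcripts tested 59.3% passed the threshold (false discovery rate, FDR, under 0.05) and 32.8% did so with the higher level in the tubules. The difference (logFC, log2 scale, tubules minus ventriculus, edgeR's quasi-likelihood test) was 3.77 ± 0.207 (SE; FDR 4.25e-10) for CYP6AS13, a fold of 13.6. It was 3.40 ± 0.886 for Cyp6as5, a fold of 10.6 (FDR 0.00335), though this transcript entered the test only through its tubule pools. For CYP6AS11 it was 3.92 ± 1.61, a fold of 15.2, and the test was passed narrowly (FDR 0.0452).

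The median logFC of all transcripts was 0.15, and 1.95%, 2.48% and 3.62% of them had a logFC at least as high as CYP6AS11, CYP6AS13 and Cyp6as5. The call on CYP6AS11 was lost when no filter on low counts was applied (FDR 0.0548) and when any 1 ventriculus or tubule library was left out (highest FDR 0.0815), with a logFC that stayed between 3.78 and 4.20. All 18 libraries share an estimate of the spread, which includes the brain pool of P21. Without that pool the FDR was 0.00133, and with only the 12 libraries of the ventriculus and the tubules it was 8.95e-07 at a logFC of 3.95 ± 0.343.

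Against the brain, too, all 3 transcripts were higher in the tubules, by very different amounts. Cyp6as5 again entered the test only through its tubule pools. In this contrast 75% of all transcripts passed the threshold, 34.5% with the higher level in the tubules and 40.5% with the higher level in the brain. At TMM-scaled levels 55.9% had pools that did not overlap between the tissues, as all 3 members had. The logFC (tubules minus brain, quasi-likelihood test) was 5.41 ± 1.73 for CYP6AS11 (fold 42.5, FDR 0.00940), 4.62 ± 0.935 for Cyp6as5 (fold 24.6, FDR 0.000252) and 0.80 ± 0.187 for CYP6AS13 (fold 1.74, FDR 0.000880). A logFC as high as that of CYP6AS13 was found in 24.5% of all transcripts, against 0.891% for CYP6AS11.

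The size of the difference for CYP6AS11 and Cyp6as5 turned on the P21 brain pool. Leaving out the 3 libraries of P21 gave 11.12 ± 1.41 for CYP6AS11 (FDR 4.26e-06) and 7.54 ± 0.613 for Cyp6as5 (FDR 3.57e-08), and for CYP6AS13 a nearly unmoved 0.88 ± 0.207 (FDR 0.00138). Leaving out the brain pools of P11 and P21 gave 14.13 ± 0.686 for CYP6AS11, 8.39 ± 0.659 for Cyp6as5 and 0.89 ± 0.204 for CYP6AS13. Cyp6as5 had 9 counts in the 5 brain pools without P21 and 4 in the 4 pools without P11 and P21. These are near or below the floor of 3 counts per library, so the sizes of its differences here are not settled. With the patriline as a block, the logFC of CYP6AS11 was 11.45 ± 2.35. The call on CYP6AS13 was lost when library sizes were used without TMM factors (logFC 0.39 ± 0.235, FDR 0.139), which moved the median of all transcripts by −0.41.

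Between ventriculus and brain the genes parted. The background in this contrast was 77.4% of transcripts past the threshold, 33.3% with the higher level in the ventriculus and 44.2% with the higher level in the brain. CYP6AS13 was lower in the ventriculus by 7.82 times (logFC, ventriculus minus brain, −2.97 ± 0.200, FDR 7.23e-10), lower in 6 of 6 patrilines, with pools that did not overlap, as in 61% of all transcripts. For CYP6AS11 (1.49 ± 1.47, FDR 0.362) and Cyp6as5 (1.22 ± 0.899, FDR 0.221) the quasi-likelihood test was not passed, and their pools overlapped.

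These open calls changed with the P21 and P11 brain pools. Within a patriline CYP6AS11 was higher in the ventriculus than in the brain in 5 of 6 patrilines, the exception being P21, where the brain held 2.19 times the ventriculus level. With the patriline as a block the logFC was 7.11 ± 2.17 for CYP6AS11 (FDR 0.00907) and 2.18 ± 0.878 for Cyp6as5 (FDR 0.0370). Without the brain pools of P11 and P21 it was 10.18 ± 0.603 for CYP6AS11 (FDR 5.11e-10) and 4.96 ± 0.643 for Cyp6as5 (FDR 3.74e-06), and for CYP6AS13 −2.91 ± 0.201. The 4 brain pools left held 4 counts of Cyp6as5 in all, none reaching the floor of 3, so the size of its difference is not settled. With library sizes alone the logFC of Cyp6as5 was −0.078 (FDR 0.934).

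Scaling mattered to the balance of all transcripts. With library sizes alone the share of calls with the higher level in the first tissue went from 55.4% to 92.1% for tubules against ventriculus, from 46.0% to 30.8% for tubules against brain and from 43.0% to 10.5% for ventriculus against brain. The medians moved by 1.15, −0.41 and −1.57 on the log2 scale. TMM factors were 0.472 to 0.613 in the ventriculus and 1.08 to 1.78 in the other tissues. The higher level of the 3 members in the tubules than in the ventriculus and of CYP6AS13 in the brain than in the ventriculus held under both.

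The order of the mean levels was thus tubules, ventriculus, brain for CYP6AS11 and Cyp6as5, and tubules, brain, ventriculus for CYP6AS13. For Cyp6as5 the ventriculus and brain means rest on 96 and 73 counts. In the main test the last 2 places of the first order did not differ beyond their spread. In bulk tissue a lower level of a transcript can come from fewer cells that hold it or from less of it per cell, and the 2 cannot be told apart.

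**Figure D2:**
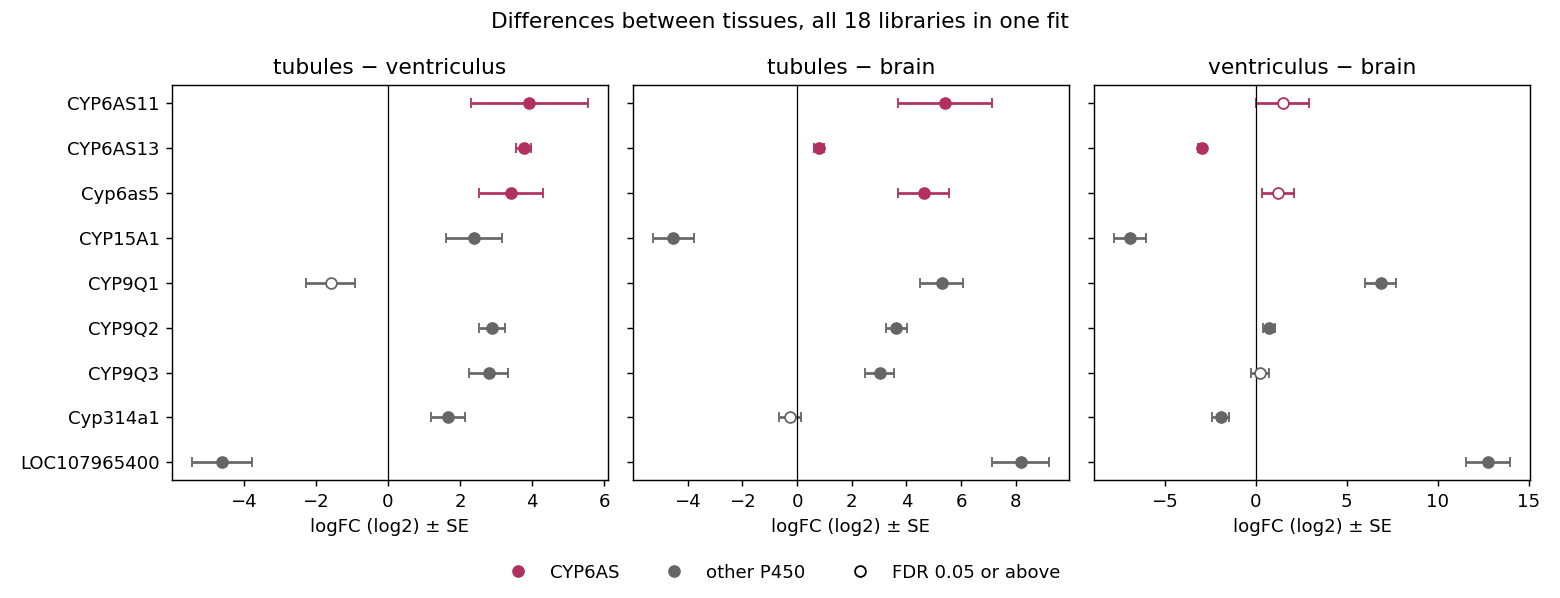
Difference between tissues (logFC, log2 scale, point ± SE) of the 3 CYP6AS transcripts and the 6 other tested P450 transcripts in the 3 contrasts, each panel with its own axis; filled points have an FDR under 0.05. The SE of CYP6AS11 reached 1.73 and that of CYP6AS13 at most 0.207, and the CYP6AS transcripts lay between 3.40 and 3.92 for tubules against ventriculus.

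In the P21 brain pool, the high CYP6AS11 and Cyp6as5 values came together with raised tubule transcripts. The rise of each brain pool over the median of the others was taken as a percentage of the tubule level. In P21 it was 14.3% for CYP6AS11 and 20.3% for Cyp6as5, and for the 92 tubule markers the median was 15.2% (quartiles 7.48% and 20.0%). Of these markers 89 were higher in P21 than in every other brain pool. In P11, the pool with the highest royal jelly share, CYP6AS11 stood at 0.227% and Cyp6as5 at 1.67%, and the median of 90 markers was 0.0168% with an upper quartile of 0.910%. In the other 4 pools the rise of CYP6AS11 was between −0.00854% and 0.00425% and the marker medians were between −0.0468% and −0.000128%. The part of tubule RNA in the brain levels of CYP6AS11 and Cyp6as5 was not tested.

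For CYP6AS13 the same measure gave 20.6% in P21, its highest brain pool, 19.2% in P7 and 8.53% in P8. The tubule markers of P7 and P8 stood at −0.000128% and −0.0468%. Unlike the markers, CYP6AS13 is not scarce in the brain (832 ± 168 CPM, SD, n = 6, against a mean of 1452 CPM in the tubules). The measure therefore cannot separate tubule RNA from the spread between its brain pools. The tubule pool of P21, in which brain transcripts were raised, was the lowest of the 6 for CYP6AS11 (2593 CPM) and Cyp6as5 (3.30 CPM), and in the middle for CYP6AS13 (1476 CPM).

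**Figure D3:**
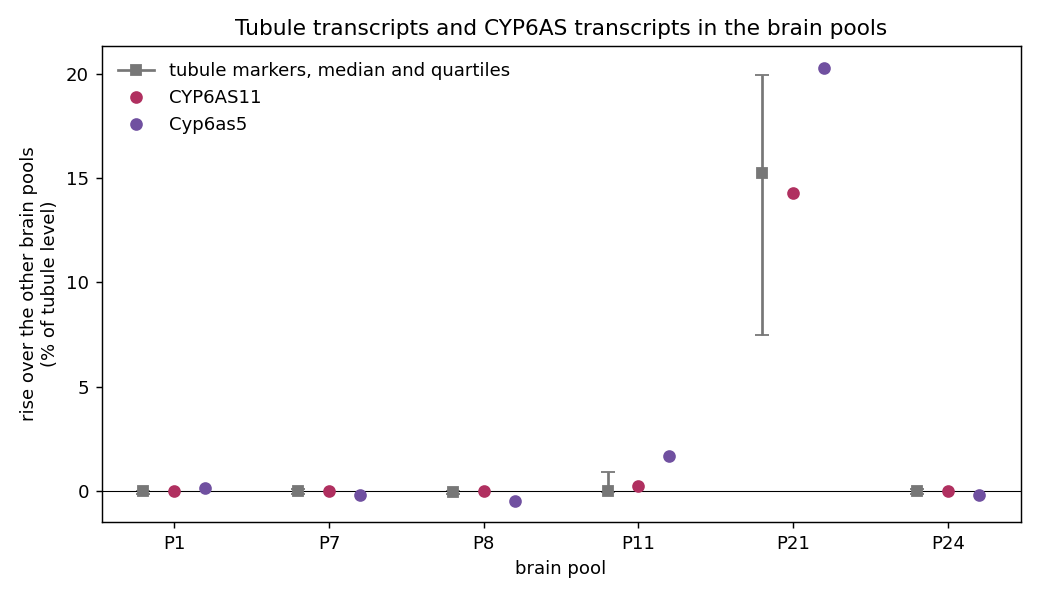
Rise of CYP6AS11 and Cyp6as5 in each brain pool over the median of the other brain pools, as a percentage of the tubule level, beside the median and quartiles of 87 to 93 tubule marker transcripts. CYP6AS11 (14.3%) and Cyp6as5 (20.3%) rose in P21 together with the markers (15.2%) and lay near 0 elsewhere, apart from 1.67% for Cyp6as5 in P11.

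The low level of CYP6AS11 and CYP6AS13 in the ventriculus can be set against other transcripts that are abundant in the tubules. They stood in the ventriculus at 6.59% and 7.33% of their tubule mean. Of 1031 other transcripts with at least 100 CPM in every tubule pool, as both have, 21 and 27 had a lower percentage, and the median of the 1031 was 94.9%. The 5th percentile was 12.8% and the 1st was 6.06%, so both lay below the 5th percentile and above the 1st. Cyp6as5 stood at 9.46%, but with 3.30 to 6.11 CPM in the tubules it is not of this class and is not ranked in it.

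By patriline the percentage ran from 2.78% to 12.4% for CYP6AS11, from 4.10% to 10.5% for CYP6AS13 and from 1.23% to 26.3% for Cyp6as5, whose ventriculus pools held 2 to 29 counts. The lowest values of CYP6AS11 were those of P24 and P7 and its highest that of P11. The 5th percentile of the 1031 transcripts was also lowest in P7 (10.6%) and P24 (10.9%) and was 17.8% in P11 and 18.1% in P21. At most 4 transcripts met the rule for tubule markers in a ventriculus pool, so no share of tubule RNA was estimated there. Whether the ventriculus counts of the CYP6AS genes arose in ventriculus cells was not tested.

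**Figure D4:**
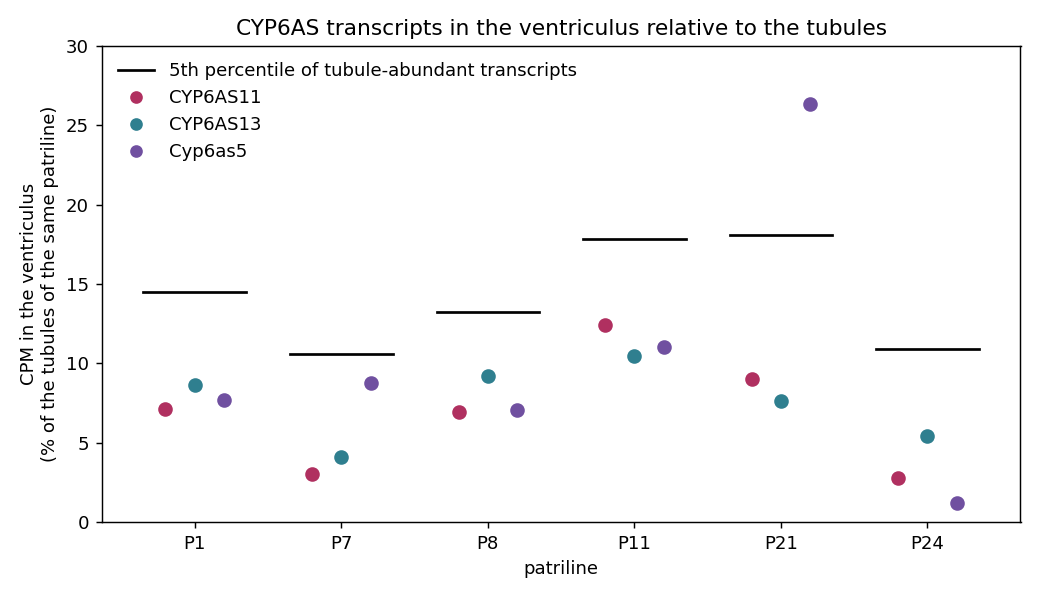
CPM in the ventriculus as a percentage of the CPM in the tubules of the same patriline for the 3 CYP6AS transcripts, with a line at the 5th percentile of 1031 tubule-abundant transcripts in that patriline. The points of CYP6AS11 and CYP6AS13 all lay below the line, and Cyp6as5, which is not of this class by its level, reached 26.3% in P21.

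The patriline was asked about without grouping the families. A patriline term common to the 3 tissues passed the threshold in 0.451% of transcripts (46 of 10209), and in none of the 3 CYP6AS transcripts (quasi-likelihood test, FDR 0.502 for CYP6AS11, 0.904 for CYP6AS13 and 0.528 for Cyp6as5; unadjusted p 0.125, 0.770 and 0.143). DESeq2's likelihood ratio test called none of the 3 either (FDR 0.108, 0.968 and 0.159), among 1128 transcripts it called. The coefficient of variation over 6 pools was 22.1%, 18.5% and 20.6% in the tubules, in the same order of genes, 50.6%, 27.8% and 60.0% in the ventriculus and 240%, 20.2% and 211% in the brain.

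Other P450 genes showed which tissue patterns occur beside these. Of 11 P450 genes with a CYP name or a place in the study's gene list, 8 are outside the 3 described here. They have 24 transcripts, of which 14 had 0 counts in all libraries and 6, from 6 genes, passed the filter. Against the ventriculus, 4 of the 6 were higher in the tubules and 1 was lower (3 and 2 without all P21 libraries), where 32.8% and 26.5% of all transcripts were. Against the brain, again 4 were higher in the tubules and 1 was lower, beside 34.5% and 40.5% of all. Of ventriculus and brain the ventriculus was higher for 3 and lower for 2, beside 33.3% and 44.2% of all, and with library sizes alone it was higher for 2 and lower for 4. With 5 of 6 called in each contrast and 59.3% to 77.4% called among all transcripts, the counts say little about the list. Without the brain pools of P11 and P21 the counts were the same, apart from 2 lower in the tubules than in the ventriculus. The list median logFC was 2.03, 3.33 and 0.49 in the 3 contrasts, beside 0.15, −0.11 and −0.23 over all transcripts.

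The CYP9Q enzymes of the honey bee metabolise neonicotinoids and other pesticides. CYP9Q2 had 1551 ± 966 CPM in the brain, 2612 ± 756 in the ventriculus and 19265 ± 4333 in the tubules (n = 6 each), and CYP9Q3 had 557 ± 37.0, 653 ± 327 and 4509 ± 4185 CPM. As for CYP6AS11, the tubule level was the highest of the 3, with a logFC of tubules minus ventriculus of 2.88 ± 0.356 and 2.79 ± 0.532 (quasi-likelihood FDR 2.73e-06 and 0.000250). CYP9Q1 had its highest mean in the ventriculus, 15063 ± 4945 CPM against 5026 ± 1536 in the tubules, a logFC of −1.58 ± 0.680 that missed the threshold (FDR 0.0539). Without the brain pools of P11 and P21 that FDR was 0.000121, and the brain means of CYP9Q1, CYP9Q2 and CYP9Q3 were 32.3 ± 9.62, 1230 ± 47.4 and 550 ± 34.4 CPM (n = 4), the first down from 129 ± 213 CPM. Between ventriculus and brain, CYP9Q2 barely passed the threshold (logFC 0.75 ± 0.333, FDR 0.0485) and CYP9Q3 did not (0.23 ± 0.498, FDR 0.682). Without the brain pools of P11 and P21 the logFC was 1.12 ± 0.234 for CYP9Q2 (quasi-likelihood FDR 0.000401) and 0.29 ± 0.586 for CYP9Q3 (FDR 0.6675). With library sizes alone both turned, to −0.77 and −1.33.

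A P450 that the study's list names as a probable 6a14, LOC107965400, had its highest level in the ventriculus, with 776 ± 255 CPM there. It had 32.0 ± 19.6 CPM in the tubules and 0.117 ± 0.274 in the brain. CYP15A1, the epoxidase of juvenile hormone synthesis in insects, had a higher level in the brain (17.1 ± 8.46 CPM, and 19.5 ± 9.67 without P11 and P21) than in the ventriculus (0.141 ± 0.140 CPM; logFC −6.91 ± 0.867, quasi-likelihood FDR 1.29e-06). Unlike CYP6AS13 it was lower in the tubules (0.733 ± 0.966 CPM) than in the brain (logFC −4.52 ± 0.741, FDR 3.17e-05). Cyp314a1 encodes the hydroxylase that makes the moulting hormone 20E in Drosophila. Its only tested transcript was near 0 in all tissues (0.169 to 0.642 CPM on average). Of the 2 remaining genes, CYP6AQ1 had 79 counts in NM_001205062.1 and Cyp4g11 had 7, and they were not tested. Cyp314a1, CYP6AQ1 and Cyp4g11 have several transcripts each, so, as for Cyp6as5, these low counts cannot be taken as the levels of the genes.

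The 3 CYP6AS genes lie on linkage group 13, with 12 genes between CYP6AS11 and Cyp6as5 and 5 between Cyp6as5 and CYP6AS13 in the gene order of the reference table. With 3 more genes on each side the stretch holds 26 genes, 23 of them neighbours, a list drawn up after values had been seen. Of 16 neighbour transcripts that passed the filter, 9 had their highest mean in the tubules, 4 in the ventriculus and 3 in the brain, beside 25.7%, 29.7% and 44.7% of all transcripts tested. Against the ventriculus 8 of the 16 were higher in the tubules and 3 were lower (32.8% and 26.5% of all), and against the brain 12 were higher in the tubules and 3 were lower (34.5% and 40.5% of all). In the ventriculus 7 were higher than in the brain and 5 lower (33.3% and 44.2% of all), and 10 and 3 without the brain pools of P11 and P21. With library sizes alone the balance of ventriculus and brain turned, to 5 higher and 7 lower in the ventriculus. In the tubules 12 were then higher and 3 lower than in the ventriculus, and 12 higher and 4 lower than in the brain.

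The genes next to the members differed in kind. LOC112935903, beside CYP6AS11, had 50.5 CPM in the tubules, 3.66 in the ventriculus and 1.98 in the brain, the last being 0.0308 CPM without P11 and P21 (logFC tubules minus ventriculus 3.79 ± 1.21, quasi-likelihood FDR 0.0127). LOC412209, beside Cyp6as5, had 777 CPM in the tubules, 84.8 in the ventriculus and 54.1 in the brain, or 30.6 without P11 and P21 (logFC 3.20 ± 0.434, FDR 7.64e-06). The gene on the other side of Cyp6as5, LOC113219203, was near 0 in all tissues (0.476 CPM in the tubules, 0.290 in the ventriculus), and LOC112939925, on the near side of CYP6AS13, had 81.0 and 101 CPM. Neither was called between tubules and ventriculus (logFC 0.71 ± 0.553, FDR 0.278, and −0.31 ± 0.444, FDR 0.557). LOC724962, the gene on the other side of CYP6AS11, had 0 counts in all its 8 transcripts. With several transcripts, as for Cyp6as5, this cannot be taken as the level of the gene. On the far side of CYP6AS13 lie LOC725087, LOC107965400 and LOC725159, whose ventriculus levels of 19.4, 776 and 3182 CPM were above their tubule levels of 0.760, 32.0 and 80.7 CPM. Their logFC of tubules minus ventriculus was −4.67, −4.60 and −5.30, all past the threshold, where that of CYP6AS13 was 3.77.

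**Figure D5:**
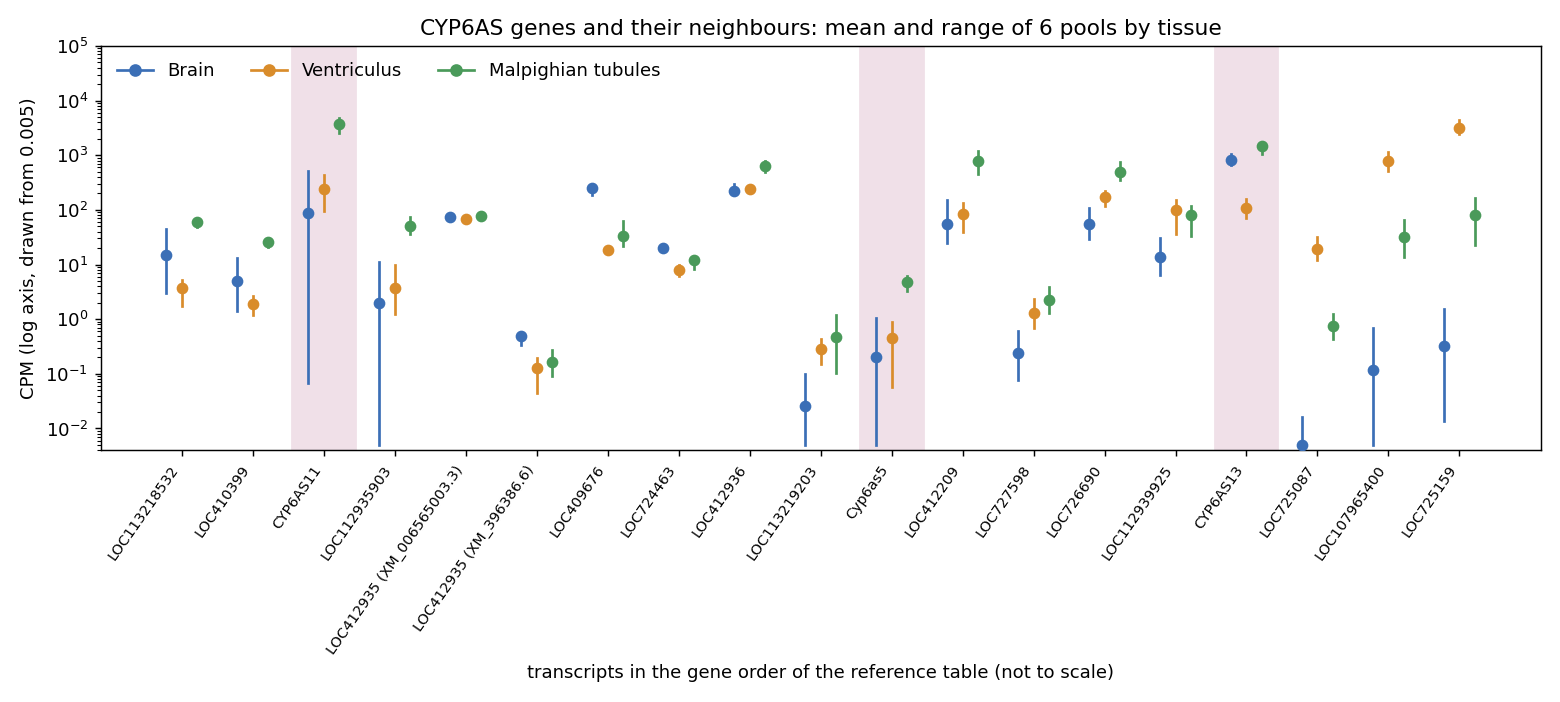
Mean CPM (point) and range of 6 pools (line) by tissue on a log axis for the 19 tested transcripts of the 26-gene stretch, in the gene order of the reference table and not to scale, with the 3 CYP6AS transcripts shaded. CYP6AS13, at 106 CPM in the ventriculus and 1452 CPM in the tubules, stands beside LOC725087, at 19.4 and 0.760 CPM.

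Some transcripts followed the members closely over the 18 libraries, among 4479 or 4480 with a mean of at least 10 CPM. Pearson's r of log2(CPM + 1) is given as a description, since all points share the 3 tissues and their libraries. The most similar to CYP6AS11 were LOC409306 (r = 0.995), LOC102655631 (0.993) and LOC726965 (0.993), all highest in the tubules. For CYP6AS13 they were LOC725122 (0.987), LOC552015 (0.986) and crh-BP (0.984), which encodes a protein that binds corticotropin-releasing hormone in vertebrates and had 73.4, 7.92 and 131 CPM in brain, ventriculus and tubules. For Cyp6as5 they were LOC102654638 (0.988), LOC100577268 (0.985) and LOC412209 (0.984), the last being its neighbour on the linkage group. Without the brain pools of P11 and P21 these 9 values were between 0.985 and 0.999.

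With the tissue means subtracted, the closest were LOC409306 (0.980), LOC726463 (0.974) and LOC726965 (0.967) for CYP6AS11. They were LOC100576286 (0.820), LOC552015 (0.813) and LOC410022 (0.807) for CYP6AS13, and LOC412611 (0.898), LOC412209 (0.883) and LOC552014 (0.867) for Cyp6as5. For CYP6AS11 the P21 brain pool, with 511 CPM against a median of 0.288, is the point farthest from its tissue in this measure. Without the brain pools of P11 and P21 the r values fell to between 0.793 and 0.867 for CYP6AS11 and to between 0.695 and 0.782 for Cyp6as5, and were 0.798 to 0.836 for CYP6AS13.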

How the data were processed

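Brain, ventriculus and Malpighian tubules of 5 workers per patriline were sequenced as 18 libraries. The authors' processing notes name Trimmomatic, STAR, HTSeq, MultiQC and edgeR, and the deposited values are raw counts per transcript; the sources used here give no version, strand setting or annotation release. The paper names the genome Amel_4.5, whereas 27887 of 28396 features matched, by accession, a RefSeq table of Amel_HAv3.1, so no coordinates are printed. Without strand, reads of overlapping antisense genes cannot be told apart. The HTSeq classes of ambiguous (30.9% to 50.3%), featureless (6.26% to 17.6%) and multiply aligned fragments (1.47% to 2.76%) entered neither library sizes nor tests.

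Counts were filtered with filterByExpr (minimum count 10, total 15), scaled with TMM factors and fitted in a single model with tissue as the group by edgeR 4.0.16 (quasi-likelihood F test, R 4.3.3, limma 3.58.1), with Benjamini-Hochberg adjustment over 10209 transcripts and a threshold of 0.05. Standard errors were derived from the logFC and its F statistic. Tables and figures were made with Python 3.11.15. Counting error was small beside the spread between pools, except for Cyp6as5, with 0 to 301 counts per library, and for CYP6AS11 in 4 brain pools. No 2 libraries of a tissue agreed within sampling noise (chi-square per degree of freedom at least 49.3 over 45 pairs). The 3 tissue pools of each patriline hold the same workers, which pairs the libraries; deviations of paired libraries from the tissue means correlated at −0.185 to 0.390. A fit with the patriline as a block, DESeq2 1.42.0, other scalings, no filter and left-out libraries were the alternatives. The procedure was tested on simulated counts.

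Tubule markers have at least 100 CPM in every tubule pool of the other 5 patrilines and a brain median of at most 5% of that level; markers of other tissues were chosen in the same way. Named transcripts are those of the 3 genes, the 10 highest of the P450 list and, for each gene, the 3 with the highest Pearson r of log2(CPM + 1, a pseudocount of 1); others were chosen after their values were seen. The genes and lists were chosen with earlier results of these data known. Sequences, transcript lengths, protein identities and product names were not used here, so a wider P450 family list, reductase genes and tubule markers by name were not analysed here.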

Additional observations from a re-analysis of the deposited data

Results flagged for a closer look

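In 2 of the 9 groups of 6 pools examined, 1 pool lay far from the other 5. Both times it was the same library, the P21 brain pool. Chance flags about 1 in 20 groups where values are normally distributed and libraries are separate, so that rate cannot be set beside these 2. CYP6AS11 reached 511 CPM in the P21 brain pool, where the next brain pool held 8.11 CPM. Cyp6as5 reached 1.06 CPM (64 counts) there, where the next held 0.0918 CPM (5 counts). In the same pool tubule markers stood at a median of 15.2% of their tubule level above the other brain pools; their part in these values was not tested.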

How the results depend on the processing

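Leave-one-out fits aside, 131 recomputed values of the main results kept their direction and side of the threshold (counts of calls, within 1.5 times), and so did 27 counts of calls on the other P450 transcripts. The differences of CYP6AS13 between tubules and ventriculus and between ventriculus and brain kept their call under every alternative run. The changes were these. For CYP6AS11, tubules minus ventriculus was 3.92 with no filter (FDR 0.0548); leaving out single libraries gave 3.78 to 4.20, with the call lost in 12 of 18 fits. For CYP6AS13, tubules minus brain was 0.39 with library sizes alone (FDR 0.139), and its mean levels were then 1323 CPM in brain, 58.0 in ventriculus and 1740 in tubules; the ventriculus means of CYP6AS11 and Cyp6as5 then fell from 243 to 134 CPM and from 0.451 to 0.253 CPM. For ventriculus minus brain, CYP6AS11 became called with the patriline block (7.11), without all 3 libraries of P21 (7.12) and without the brain pools of P11 and P21 (10.18), and over single libraries it ran from 1.24 to 7.13, called only without the P21 brain pool (FDR 2.71e-05). Cyp6as5 likewise became called with the block (2.18), without P21 (3.76) and without the brain pools of P11 and P21 (4.96), ran from 0.95 to 4.07 over single libraries (FDR 1.78e-05 without the P21 brain pool), and turned to −0.078 with library sizes alone. Without the P21 brain pool the brain held 9 counts of Cyp6as5, and 4 without that of P11 too, so the sizes of these differences are not settled. The block changed no other call on the 3 members.

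The patriline term was passed by 46 transcripts, by 1128 in DESeq2's likelihood ratio test, by 12 without the brain libraries and by 21 to 194 without single libraries (194 without the P21 brain pool). Leaving out all of P21, the neighbour list, and brain means, neighbour counts and correlations without pools were chosen after seeing the data. The cause of these changes was not tested. With 6 pools per tissue, ambiguous reads of up to 50.3% of fragments and unknown transcript lengths, levels of Cyp6as5 and differences between genes are not settled.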
